A study of Mus musculus with 9 samples.

Results

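Integrins and adhesion molecules were examined in splenic monocytes as a set of 9 genes, Itgal, Itgam, Itga4, Itgb1, Itgb2, Itgb7, Selplg, Cd44 and Icam1, out of 46072 genes in both deposited tables. The genes were chosen by their symbols, each of which had 1 row, and all 9 had a value above 0 in every library and an adjusted p in every comparison. RNA sequencing was performed on monocytes of female C57BL/6 mice, enriched from the spleen by magnetic negative selection and not stimulated in culture. Con mice (3 libraries) were gavaged with water for 6 days and rested for 6 to 8 days in the labels' account, or 8 days in the description of the sequenced mice. Van mice (3 libraries) were gavaged with vancomycin, an antibiotic, as 2 gavages of 1 mg for a total of 2 mg per mouse per day over the same 6 days, and rested likewise. VanLip mice (3 libraries) had the same vancomycin and rest, and L654, a bacterial serine-glycine lipid that is recognised by the receptor TLR2, was injected retro-orbitally on days 7, 9 and 11. No group received L654 without vancomycin, so the comparisons concern L654 only after vancomycin. For the sequenced groups the paper points to a protocol figure whose legend has either L654 or PBS, the vehicle, injected. Whether Con and Van mice of these libraries had PBS is not stated, so L654 cannot be told apart from injection and handling. The question for these genes was whether the vancomycin and rest protocol, with or without L654, altered the monocyte machinery for rolling, arrest and tissue entry.

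Monocytes leave the blood in steps. Selectins on the vessel wall catch carbohydrate ligands such as those carried by PSGL-1, the product of Selplg, and CD44, the receptor for hyaluronan, also takes part in rolling and in movement through matrix. Firm arrest then depends on integrins, which are pairs of an alpha and a beta chain: Itgal or Itgam joins Itgb2 to give LFA-1 or Mac-1, both of which bind ICAM-1, and Itga4 joins Itgb1 to bind VCAM-1 or joins Itgb7 to bind MAdCAM-1 on vessels of the gut. Classical monocytes carry more Ccr2 and Ly6c2, whereas non-classical monocytes, which patrol the vessel wall, carry more Itgal.

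All 9 genes are annotated as protein coding on GRCm38. The alpha chain genes lie at chr7:127296260-127335138 on the plus strand (Itgal), chr7:128062640-128118491 on the plus strand (Itgam) and chr2:79255426-79333123 on the plus strand (Itga4). The beta chain genes lie at chr8:128685654-128733200 on the plus strand (Itgb1), chr10:77530252-77565708 on the plus strand (Itgb2) and chr15:102215995-102231944 on the minus strand (Itgb7). Selplg lies at chr5:113818536-113832644 on the minus strand, Cd44 at chr2:102811141-102901665 on the minus strand and Icam1 at chr9:21015985-21028817 on the plus strand. Itgam is overlapped on its own strand by Gm49368, a gene with no row in the tables, so reads of the 2 models cannot be told apart and the value of Itgam is uncertain to that degree. Itga4, Cd44 and Icam1 are overlapped by genes of the opposite strand, of which Cerkl (at Itga4) and Gm23731 (at Cd44) had mean levels of 1.14 and 1.36 FPKM. Itgal, Itgb1, Itgb2, Itgb7 and Selplg had no overlapping gene.

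Promoter sequences are shown for the 2 genes that passed the test below, Cd44 and Itgb7, and for Itgam, a gene known as a target of the myeloid factor PU.1. Each run holds the 250 bases before the RefSeq start, 5′ to 3′ on the strand of the gene, from GRCm38.p6, at chr2:102901666-102901915 (minus strand) for Cd44, chr15:102231936-102232185 (minus strand) for Itgb7 and chr7:128062390-128062639 (plus strand) for Itgam. Capitals mark matches, on either strand, to 4 words searched: GAGGAAG (PU.1), GGGCGG (SP1), TGTGGT (RUNX) and the kappaB word.
Cd44: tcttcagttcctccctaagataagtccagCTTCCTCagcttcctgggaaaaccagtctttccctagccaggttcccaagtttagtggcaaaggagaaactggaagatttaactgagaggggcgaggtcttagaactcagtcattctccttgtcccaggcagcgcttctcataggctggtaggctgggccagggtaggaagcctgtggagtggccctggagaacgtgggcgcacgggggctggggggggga
Itgb7: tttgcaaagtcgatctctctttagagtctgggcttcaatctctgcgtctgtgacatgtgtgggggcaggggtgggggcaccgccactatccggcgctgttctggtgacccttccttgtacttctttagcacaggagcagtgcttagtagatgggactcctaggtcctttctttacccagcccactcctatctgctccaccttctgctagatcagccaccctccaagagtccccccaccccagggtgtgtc
Itgam: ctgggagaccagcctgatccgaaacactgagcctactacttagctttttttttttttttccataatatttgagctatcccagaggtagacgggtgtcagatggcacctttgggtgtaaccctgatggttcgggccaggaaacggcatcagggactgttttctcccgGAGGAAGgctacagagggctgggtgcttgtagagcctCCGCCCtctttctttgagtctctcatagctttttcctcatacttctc
The window of Cd44 held 1 PU.1 word, read on the opposite strand, 221 to 215 bases before the start. The window of Itgb7 held none of the 4 words. The window of Itgam held a PU.1 word 84 to 78 bases and an SP1 word, read on the opposite strand, 47 to 42 bases before the start. The PU.1 word was present in 10.6% of 32851 mouse promoter windows of this length, the SP1 word in 32.7%, the RUNX word in 14.0% and the kappaB word in 1.41%. Sequences were found for 6 of the 9 genes. In the windows of the other 3, Itga4 held an SP1 and a RUNX word, and Itgb1 and Icam1 an SP1 word each. A match of letters is a description of the window and not evidence of binding.

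Every one of the 9 genes was abundant. Levels between genes are compared here in FPKM (fragments mapped to a gene, scaled to transcript length and library size), which takes account of transcript length. Among the 26108 genes detected in at least 1 library, Itgb2 ranked 115 by mean FPKM, Itgal 122, Selplg 259, Cd44 291, Itgam 310, Itga4 382, Itgb1 424, Itgb7 488 and Icam1 1442, so that the lowest of them stood within the top 5.52%. Mean FPKM over the 9 libraries was 481 ± 31.6 for Itgb2 (SD, n = 9) and 463 ± 67.9 for Itgal (SD, n = 9), and Itgb2 was the higher of the 2 in 6 of 9 libraries, so this order did not exceed the spread. Selplg followed at 243 ± 19.3 FPKM, lower than Itgal in 9 of 9 libraries. Cd44 (217 ± 18.7 FPKM) was lower than Selplg in 8 of 9 libraries, and Itgam (197 ± 20.2 FPKM) was lower than Cd44 in 7 of 9, so neighbouring ranks among these 3 genes were close. Itga4 averaged 160 ± 20.9 FPKM, below Itgam in 9 of 9 libraries. Itgb1 averaged 142 ± 9.20 FPKM, below Itga4 in 7 of 9 libraries, and Itgb7 123 ± 20.7 FPKM, below Itgb1 in 8 of 9. Icam1, the ligand rather than the receptor, was the lowest of the set at 46.7 ± 5.39 FPKM and lay below Itgb7 in 9 of 9 libraries.

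**Figure D1:**
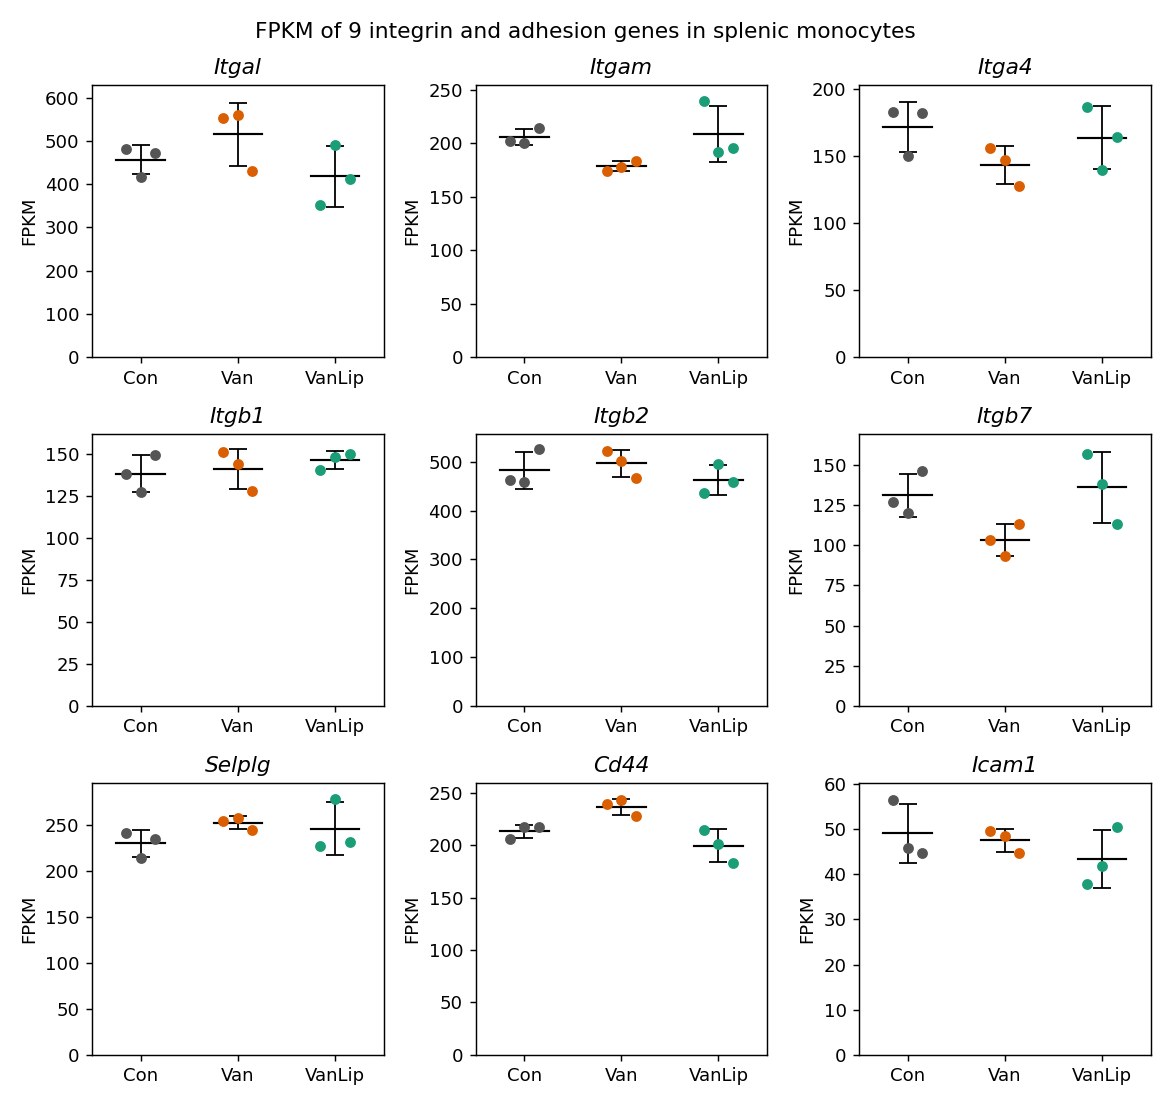
FPKM of the 9 genes in each library of Con, Van and VanLip; points are libraries, the long bar is the group mean and the whiskers are 1 SD (n = 3 a group), and each vertical axis starts at 0. Itgb2 and Itgal sit highest, between 351 and 560 FPKM, Icam1 lowest, between 37.9 and 56.5 FPKM, and Cd44 is the gene whose 3 VanLip points all lie below its 3 Van points.

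The libraries carried monocyte transcripts at high levels and little from lymphocytes. The summed level of 13 monocyte markers was 10612 to 12981 FPKM, whereas 6 B cell markers summed to 8.51 to 12.6 FPKM, 6 T cell markers to 2.04 to 4.16 FPKM and 6 NK cell markers to 4.53 to 14.3 FPKM. The NK cell sums were 9.94 to 14.3 FPKM in Con, 4.53 to 7.78 in Van and 6.29 to 9.24 in VanLip, and these sums were nearly all Klrk1, whose means were 11.1, 5.47 and 6.86 FPKM in that order. DESeq2 called Klrk1 lower than in Con in both Van (log2 fold change -0.91) and VanLip (-0.74) and called none of the other 5, which had group means of 0.241 FPKM or less, in any comparison, and edgeR called 0 of the 6. Of the T cell markers Cd247 was called lower in Van against Con by DESeq2 (-1.22, adjusted p = 0.0461) and 0 by edgeR or limma. Red pulp macrophage markers (6 genes) summed to 692 to 1142 FPKM, with ranges of the 3 groups that overlapped, and neutrophil markers (7 genes, Ly6g at 0 in every library) to 13.6 to 37.1 FPKM. Mmp8, not called, made up most of the neutrophil sum, with group means of 14.4 to 23.3 FPKM, while DESeq2 called Retnlg lower in Van against Con (-2.60, adjusted p = 0.0225) and Ngp lower in VanLip against Con (-1.94, adjusted p = 0.0372) and edgeR and limma called 0. Erythroid markers (5 genes) summed to more after vancomycin, at 56.9 to 115 FPKM in Con, 189 to 430 in Van and 155 to 640 in VanLip. DESeq2 called 3 of the 5 higher in Van against Con and 5 in VanLip against Con. In the same order edgeR called 0 and 3 and limma 0 and 0. The shares of all genes called by DESeq2 were 4.33% and 6.67%. The part of erythroid transcripts in the values below was not tested. In bulk samples such as these, fewer cells of a type and less RNA per cell cannot be told apart. Total expected counts spanned 43070361 to 61383806 over Con and Van together and 170503470 to 184720704 in VanLip, and the commonest low count, the size of 1 read, was 1.33 in the former and 2.00 in the latter. Depth and read size therefore cannot be told apart from the VanLip group in any comparison that includes it. Normalized counts of the 9 genes were 9217 or more in every library, so the spread between libraries and not counting error set the precision.

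The first comparison asked which adhesion genes differed after vancomycin and rest. With the DESeq2 Wald test and adjustment over all genes, 0 of the 9 were called for Van against Con at an adjusted p of 0.05 or under, beside 4.33% of the 18526 genes that had an adjusted p. Without adjustment, 4 of the 9 had p under 0.05 (Itgal, Itgam, Itga4 and Itgb7), beside 14.9% of those genes. The edgeR quasi-likelihood test called 0 with 2 at an unadjusted p under 0.05, and limma on log2(FPKM + 1) likewise called 0 with 2. For 4 of the 9 genes the Con and Van libraries did not overlap, Selplg and Cd44 being higher and Itgam and Itgb7 lower in Van, beside 20.8% of the 18526 genes. The median log2 fold change of the 9 was 0.02, against -0.01 over all genes.

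Itgb7, the beta chain of the gut-homing integrin, had the largest estimate for Van against Con. Its normalized count (expected count divided by the size factor of the library) was 32453, 30682 and 36541 in the 3 Con libraries and 26315, 23134 and 28629 in the 3 Van libraries. All Van libraries lay below all Con libraries. The log2 fold change was -0.35 with a 95% interval of -0.61 to -0.10 and a DESeq2 adjusted p of 0.103, so the difference did not pass the test. It passed in 3 of 18 alternatives. The DESeq2 adjusted p was 0.00573 in a fit of Con and Van alone, 0.0207 without VanLip 1 and 0.0174 without VanLip 3. The estimate was still -0.35 in each, since VanLip libraries enter this comparison only through the shared spread and the scaling. In the other 15 alternatives Itgb7 was not called, the fit without VanLip 2 among them. The adjusted p was 0.232 with edgeR and 0.336 with limma on log2(FPKM + 1).

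Itgam, which encodes the alpha chain of Mac-1, showed a smaller separation of the same sign. Normalized counts were 90257, 88579 and 91516 in Con and 76427, 76378 and 80525 in Van, again without overlap. The log2 fold change was -0.21, standard error 0.09 (DESeq2 adjusted p = 0.197), and the adjusted p fell to 0.00190 with Con and Van alone and to 0.00197 without VanLip 1. In the other 16 alternatives it was not called.

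The 2 remaining genes at an unadjusted p under 0.05 had groups that overlapped. Itga4, the alpha chain shared by Itgb1 and Itgb7, had normalized counts of 159244, 129847 and 158351 in Con and 136563, 124254 and 110719 in Van (log2 fold change -0.27, standard error 0.13, DESeq2 adjusted p = 0.300). Itgal, the alpha chain of LFA-1, had 197276, 166827 and 206618 in Con and 256878, 218248 and 204434 in Van (log2 fold change 0.25, or 0.15 without Van 1, standard error 0.13, DESeq2 adjusted p = 0.320). One Con library of Itga4 stood below 1 Van library, and 1 Van library of Itgal stood below the highest Con library.

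Selplg and Cd44 separated without passing either threshold. Selplg had normalized counts of 42258, 37619 and 40397 in Con and 44663, 44270 and 42815 in Van, a log2 fold change of 0.13 with an interval of -0.04 to 0.30. Cd44 had 72862, 78076 and 75133 in Con and 86066, 82446 and 81150 in Van, a log2 fold change of 0.14, standard error 0.07 (DESeq2 adjusted p = 0.355). Both genes were higher in every Van library than in every Con library, by small steps. The beta chains Itgb1 and Itgb2 and the ligand Icam1 had log2 fold changes of 0.02 (interval -0.14 to 0.19), 0.03 (-0.12 to 0.19) and -0.06 (-0.30 to 0.19), with groups that overlapped.

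**Figure D2:**
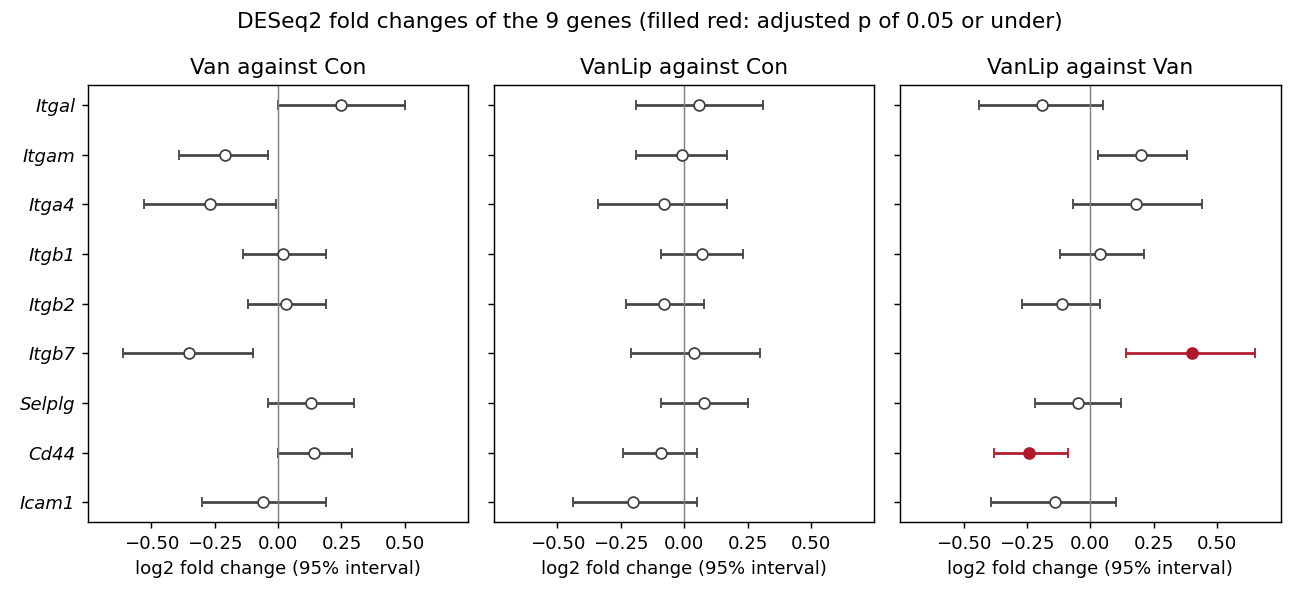
DESeq2 log2 fold changes of the 9 genes in the 3 comparisons, with 95% intervals; filled red points have an adjusted p of 0.05 or under. The filled points are Itgb7 at 0.40 and Cd44 at -0.24, both for VanLip against Van, and no gene is filled for VanLip against Con.

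Whether any of these genes differed from water controls after both agents was asked by comparing VanLip with Con. None of the 9 genes was called (0 of 9 with DESeq2, beside 6.67% of 16565 genes), and 0 of 9 reached an unadjusted p under 0.05, beside 18.6% of those genes; edgeR and limma on log2(FPKM + 1) also gave 0 at either threshold. The groups overlapped for all 9 genes, beside 23.5% of genes that did not overlap. Estimates ran from -0.20 for Icam1 (interval -0.44 to 0.05) to 0.08 for Selplg (interval -0.09 to 0.25), with a median of -0.01 against 0.01 over all genes. The widest intervals were those of Itga4 (-0.34 to 0.17), Itgb7 (-0.21 to 0.30), Itgal (-0.19 to 0.31) and Icam1. Differences within these intervals remain possible, so the lack of a call does not show that these genes were unchanged. Icam1 ran from -0.32 (without VanLip 3) to -0.08 (without Con 1) with 1 library left out. Itgam had the estimate nearest to 0, -0.01 with an interval of -0.19 to 0.17, and its sign turned with TMM library sizes.

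Comparing VanLip with Van addressed the addition of L654, with its injections, to vancomycin, and here 2 of the 9 genes were called with DESeq2, beside 9.85% of 18035 genes. Itgb7 rose and Cd44 fell. At an unadjusted p under 0.05 there were 3 of the 9, with Itgam as the third, beside 20.9% of those genes, and the groups did not overlap for Itgam (higher in VanLip) and Cd44 (lower), beside 25.9% of genes. Both calls were lost with edgeR and limma, which called 0 of the 9 with 3 each at an unadjusted p under 0.05. The Van libraries are the same ones as in the first comparison, so the opposite signs of Itgb7, Itgam and Cd44 in the 2 comparisons are not independent of each other.

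Cd44 had normalized counts of 86066, 82446 and 81150 in Van and 76853, 70136 and 64805 in VanLip. Every VanLip library lay below every Van library, and VanLip 2 and VanLip 3 also lay below all 3 Con libraries. The log2 fold change was -0.24 with an interval of -0.38 to -0.09, a decrease by 15.2% (DESeq2 adjusted p = 0.0217). The call did not hold in 10 of 18 alternatives: the adjusted p was 0.0885 with edgeR, 0.0665 with Van and VanLip alone, 0.0682 to 0.125 with limma, 0.139 without Van 1, 0.0911 without Van 2, 0.0526 without Van 3, 0.0804 without VanLip 2 and 0.0885 without VanLip 3. The estimate stayed between -0.30 and -0.18 throughout.

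Itgb7 had normalized counts of 26315, 23134 and 28629 in Van and 39958, 34398 and 28367 in VanLip. VanLip 1 and VanLip 2 stood above all Van libraries, but VanLip 3 lay within the Van range, so the groups overlapped. The log2 fold change was 0.40 with an interval of 0.14 to 0.65, an increase by 31.6% (DESeq2 adjusted p = 0.0277). Without VanLip 1 the estimate was 0.27 with an adjusted p of 0.161, and without Van 2 it was 0.32 with an adjusted p of 0.188. The call was also lost without Van 1 (0.0816) or VanLip 2 (0.0809), with edgeR (0.0988) and with limma (0.0955 to 0.207).

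Itgam had 102935, 83249 and 82482 normalized counts in VanLip, above all 3 Van libraries. VanLip 1 stood well apart from the other 2, which were just above the highest Van library at 80525. The log2 fold change was 0.20, standard error 0.09 (DESeq2 adjusted p = 0.148), and it was 0.09 without VanLip 1. For the remaining genes the groups overlapped and estimates ran from -0.19 for Itgal (interval -0.44 to 0.05) to 0.18 for Itga4 (interval -0.07 to 0.44), with Itgb2 at -0.11, Icam1 at -0.14, Selplg at -0.05 and Itgb1 at 0.04. With 1 library left out the estimate ran from -0.31 (without VanLip 2) to -0.09 (without Van 1) for Itgal and from 0.06 (without VanLip 1) to 0.30 (without VanLip 2) for Itga4. Likewise it ran from -0.26 (without VanLip 3) to -0.06 (without VanLip 1) for Icam1, and it was -0.06 without Van 1 and -0.07 without VanLip 1 for Itgb2. None of these was called.

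Integrin chains are used as pairs, so the FPKM ratio of an alpha to its beta chain was taken within each library, a value that does not depend on library scaling. Itgam over Itgb2 was 0.436, 0.436 and 0.407 in Con, 0.333, 0.354 and 0.393 in Van and 0.550, 0.388 and 0.425 in VanLip. All Van ratios were below all Con ratios, a log2 difference of -0.25 (two-sided exact permutation p = 0.1), and 0.1 is the smallest p that 3 against 3 libraries can give. Itga4 over Itgb1 was 1.33, 1.18 and 1.22 in Con, 1.03, 1.02 and 0.996 in Van and 1.33, 0.946 and 1.09 in VanLip. Here too the Van ratios, which were close to each other, lay below the Con ratios (log2 difference -0.29, exact permutation p = 0.1), whereas the VanLip ratios spanned both groups. Itgal over Itgb2 averaged 0.948 ± 0.0779 for Con, 1.03 ± 0.0979 for Van and 0.897 ± 0.0912 for VanLip (SD, n = 3 each), and Itga4 over Itgb7 averaged 1.31 ± 0.112, 1.41 ± 0.238 and 1.22 ± 0.220; both overlapped in every comparison. None of the 12 ratio comparisons could pass, with adjusted p of 0.480 or above over the 12.

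**Figure D3:**
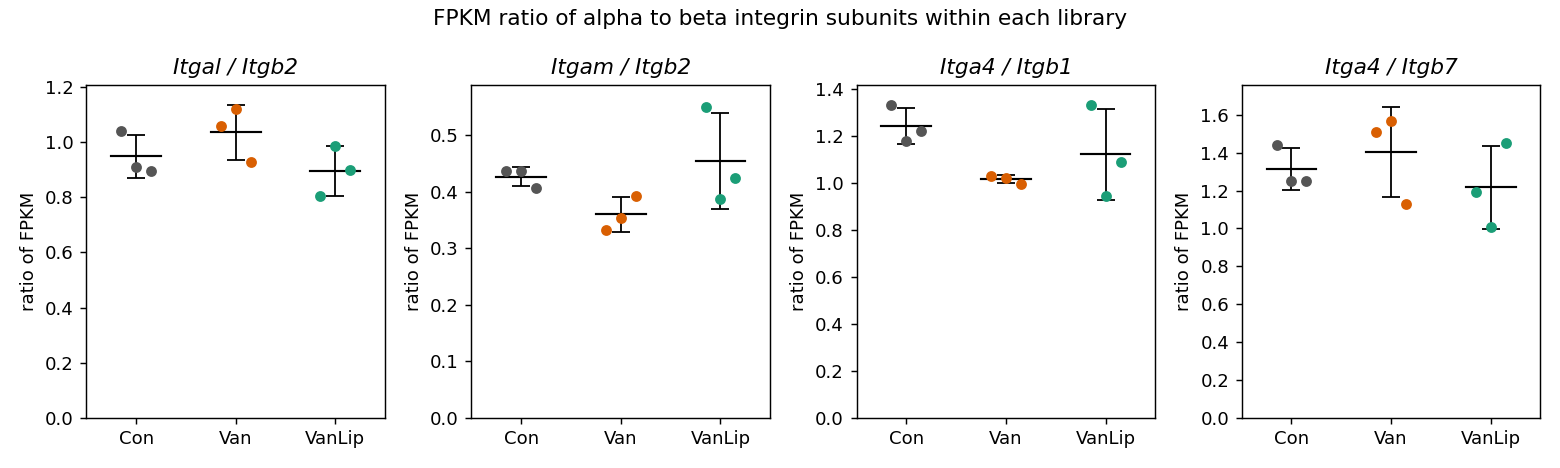
FPKM ratio of an alpha to a beta integrin chain in each library, with the group mean (long bar) and 1 SD (whiskers, n = 3 a group), on axes that start at 0. The Itgam to Itgb2 and the Itga4 to Itgb1 ratios of the 3 Van libraries lie below those of the 3 Con libraries, and the VanLip points are spread widely.

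Itgb2 has 4 alpha partners, Itgal, Itgam, Itgax and Itgad, and their summed FPKM was 1.53 to 1.75 times that of Itgb2 in every library. Itgal made up 58.4% ± 1.82 of the sum for Con, 62.6% ± 3.13 for Van and 56.7% ± 4.15 for VanLip (SD, n = 3 each). The direction between Con and VanLip depends on the scale, as the log2 difference of the Itgal to Itgb2 ratio was -0.08 in FPKM and 0.13 in normalized counts. Itgam made up 26.3% ± 0.965, 21.9% ± 2.70 and 28.9% ± 6.34 in the same order. In VanLip 1 the share of Itgam was 36.0% and that of Itgal 52.7%, the highest and the lowest of the 9 libraries. The remaining partners were minor, with group means of 8.69% to 9.62% for Itgax and 5.45% to 6.84% for Itgad.

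Some markers of the monocyte subsets were called and others were not. Ccr2, the chemokine receptor of classical monocytes, had normalized counts of 60611, 60603 and 54555 in Con, 25361, 35493 and 37845 in Van and 89509, 53107 and 60954 in VanLip. It fell in Van against Con (log2 fold change -0.83, DESeq2 adjusted p = 4.80e-04) and rose in VanLip against Van (1.04, DESeq2 adjusted p = 7.38e-07). With edgeR the adjusted p of Ccr2 was 0.0784 and 0.0144 in the same order, and with limma on log2(FPKM + 1) it was 0.143 and 0.0351. Ly6c2 passed in VanLip against Van alone, with a log2 fold change of 0.39 (DESeq2 adjusted p = 0.0262), and in Van against Con its value was -0.34 (DESeq2 adjusted p = 0.110); the call was lost with edgeR (adjusted p = 0.0966) and limma (0.156). Cx3cr1, which is higher in non-classical monocytes, also rose in VanLip against Van (0.43, DESeq2 adjusted p = 0.00264; edgeR 0.0415; limma 0.143). The other non-classical markers were not called there, with -0.07 for Ace, -0.16 for Nr4a1 and 0.04 for Treml4. For Van against Con DESeq2 called none of the non-classical markers. The values were 0.19 for Ace, 0.11 for Nr4a1, 0.19 for Treml4 and -0.17 for Cx3cr1, whose Van libraries all lay below the Con libraries. Of all 13 monocyte markers, DESeq2 called 1 in Van against Con, 0 in VanLip against Con and 3 in VanLip against Van. The shares over all genes were 4.33%, 6.67% and 9.85% in that order. For the same 13 markers edgeR called 0, 0 and 2, and limma called 0, 0 and 1. Of 6 dendritic cell markers, whose sums were 32.9 to 47.9 FPKM in Con, 31.0 to 41.0 in Van and 25.1 to 38.8 in VanLip, DESeq2 called 3 lower in Van against Con (Xcr1, Clec9a and Siglech), 2 lower in VanLip against Con (Xcr1 and Cd209a) and 2 higher in VanLip against Van (Clec9a and Siglech), whereas edgeR called 1, 0 and 0 of the 6. VanLip 1 was at once the highest of its group for Ccr2, Itgam, Itga4 and Itgb7 and the lowest for Itgal and for Ace, a gene of non-classical monocytes. Cx3cr1 and Treml4 were also lowest there. The classical marker Ly6c2 went the other way, with 30619 normalized counts in VanLip 1 against 31434 in VanLip 2 and 33586 in VanLip 3. Nr4a1 was lowest in VanLip 3 (234994, against 246470 in VanLip 1). Van 1 was the library with the lowest normalized count of Ccr2 and the highest of Itgal and Ace. The part that subset or dendritic cell makeup plays in the values of the 9 genes was not tested.

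**Figure D4:**
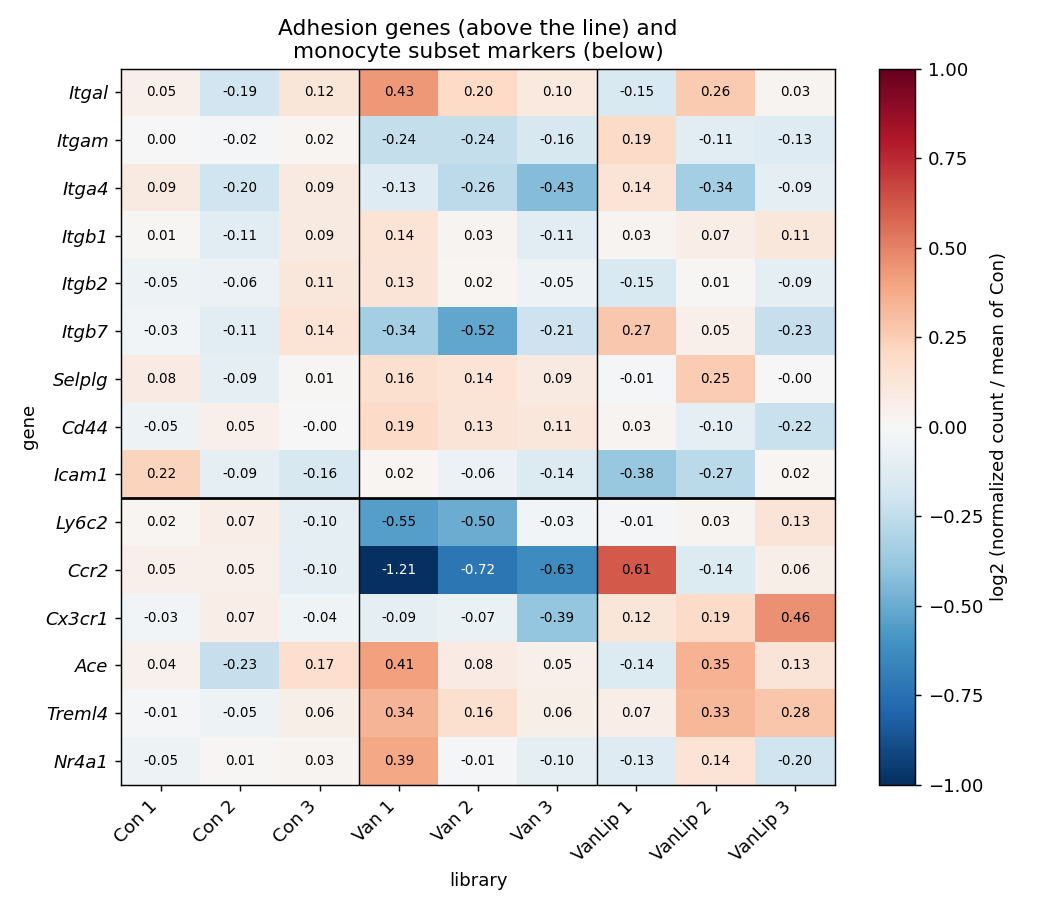
Normalized count of the 9 genes (above the line) and of 6 monocyte subset markers (below) in each library, as log2 of its ratio to the Con mean; red is higher, blue is lower and the colour scale ends at 1 in either direction. Ccr2 runs from -1.21 in Van 1 to 0.61 in VanLip 1, Itgal from -0.19 in Con 2 to 0.43 in Van 1 and Itgb7 from -0.52 in Van 2 to 0.27 in VanLip 1.

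Genes with a pattern like that of the called members were sought over the 9 libraries among 12216 genes, by Pearson r of log2(normalized count + 1). For Cd44 these were Ulk1, a kinase of autophagy (r = 0.987), Rere (0.963) and Jmy (0.953). Ulk1 had normalized counts of 7336, 7921 and 7674 in Con, 8851, 8292 and 8179 in Van and 7916, 7192 and 6254 in VanLip, so that the 9 libraries stood in the same order as for Cd44. For Itgb7 they were the peroxidase gene Prdx5 (0.945), Nfu1 (0.943) and Coro7 (0.942). These r values are the highest of a search, are given without a p, and share the depth and group structure of the same 9 libraries.

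Beyond the 9 genes, 111 further genes of adhesion were listed by role, of which 109 were in the tables. For Van against Con, 7 of the 104 with an adjusted p were called higher and 4 lower, with a median log2 fold change of -0.05 against -0.01 over all genes. For VanLip against Con 3 of 99 were higher and 4 lower (median -0.01 against 0.01), and for VanLip against Van 7 of 102 were higher and 11 lower (median 0.02 against 0.01). The same background shares of 4.33%, 6.67% and 9.85% of all genes apply. With edgeR the totals called were 4, 1 and 8. Over 18 alternatives the calls of Cyth1 (Van against Con and VanLip against Van) and of Lims1, Syk and Cd24a (VanLip against Van) were never lost, whereas Itga8 lost its call in 15, Dok1 in 14 and Cd74 and Tpst2 in 12, and the other calls named below, Itga2 aside, in 1 to 11.

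The other integrin chains (21 genes) had 2 lower in Van against Con, 0 of 16 called in VanLip against Con (DESeq2, with 2 at an unadjusted p under 0.05; 0 with edgeR and limma), and 2 higher and 2 lower in VanLip against Van. Itgav, an alpha chain of vitronectin receptors, fell in Van (log2 fold change -0.43, DESeq2 adjusted p = 0.0207) and rose in VanLip against Van (0.37, DESeq2 adjusted p = 0.0418). Itga5, the alpha chain of the fibronectin receptor, and Itga8 fell in VanLip against Van by 0.42 and 0.52 on the log2 scale. Itga2 was called in both comparisons with Van at a low level, with 0 counts in each Van library against 23.2 to 48.3 normalized counts in Con and 12.6 to 30.1 in VanLip. Itgax, the most abundant of this list, had group means of 66.9 to 75.2 FPKM and was not called in any comparison.

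Activators and linkers of integrins (28 genes) included Cyth1, which DESeq2 called in all 3 comparisons. The lists were chosen with earlier results of these data known, so this gene does not rank its list above the others. Cyth1, which encodes cytohesin-1, a regulator that binds the cytoplasmic tail of the Itgb2 product, had normalized counts of 10274, 9947 and 10450 in Con, 16017, 14802 and 14985 in Van and 9132, 8682 and 8323 in VanLip. The 3 groups did not overlap at all. It rose in Van by 0.58 on the log2 scale (DESeq2 adjusted p = 8.83e-16), fell in VanLip against Van by 0.81 (DESeq2 adjusted p = 1.64e-33) and fell in VanLip against Con by 0.23 (DESeq2 adjusted p = 0.00997). The last of these calls was lost in 7 of 18 alternatives, edgeR among them (adjusted p = 0.0871). Lims1, an adaptor of integrin-linked kinase, fell in Van against Con (-0.33, DESeq2 adjusted p = 6.05e-06) and rose in VanLip against Van (0.35, DESeq2 adjusted p = 2.95e-07). The kinase gene Ptk2b fell in Van against Con (-0.35) and the vinculin gene Vcl rose in VanLip against Van (0.34). In all, 1 gene was higher and 2 lower in Van against Con, 0 and 2 in VanLip against Con, and 3 and 3 in VanLip against Van, while the GTPase gene Rap1b, the most abundant at 413 to 561 FPKM, was not called.

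Inhibitors of integrin activation (7 genes) and outside-in signalling (11 genes) each had 1 gene higher in Van. Among the inhibitors Dab2 rose in Van from a low level of 47.9 normalized counts in Con to 111 in Van (log2 fold change 1.21, DESeq2 adjusted p = 0.0296) and fell in VanLip against Van (-1.30, DESeq2 adjusted p = 0.00407). Dok1 rose in VanLip against Con (0.36), with groups that overlapped. Syk, the kinase that carries signals from engaged integrins and Fc receptors, had 113, 121 and 119 FPKM in Con, 162, 154 and 142 in Van and 120, 94.3 and 106 in VanLip. Every Van library of Syk exceeded all others; it rose in Van (0.38, DESeq2 adjusted p = 0.00520) and fell in VanLip against Van (-0.51, DESeq2 adjusted p = 1.20e-05). Lyn fell in VanLip against Van by 0.17, and the abundant Flna and Tyrobp of these lists were not called.

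Immunoglobulin-family adhesion molecules (12 of 14 in the tables) had 3 genes higher in Van against Con, 0 of 10 called in VanLip against Con (DESeq2, with 2 at an unadjusted p under 0.05; 0 with edgeR and limma), and 2 lower in VanLip against Van. Pecam1, which acts in passage between endothelial cells, had 16.3, 12.6 and 15.8 FPKM in Con, 44.0, 31.2 and 24.2 in Van and 18.8, 23.9 and 23.2 in VanLip. It rose in Van (log2 fold change 1.14, DESeq2 adjusted p = 1.88e-07) and fell in VanLip against Van (-0.61, DESeq2 adjusted p = 0.0131). The latter estimate was -0.34 without Van 1, and its call was lost without Van 1 or VanLip 1, with limma and with edgeR (adjusted p = 0.0967). Pecam1 is also a gene of endothelium and platelets. The 4 endothelial and stromal markers summed to 1.29 to 1.57 FPKM in Con, 1.49 to 2.03 in Van and 1.09 to 2.29 in VanLip, and 1 of them, Kdr, moved with Pecam1 at a low level, with a log2 fold change of 0.76 in Van against Con (DESeq2 adjusted p = 0.221) and -1.06 in VanLip against Van (0.0156), a call that edgeR and limma did not make. The endothelial gene Cdh5 had -0.42 and 0.45 in the same order, neither of them called. The 6 platelet markers summed to 11.8 to 23.8 FPKM in Con, 10.8 to 14.0 in Van and 5.73 to 13.4 in VanLip. The part of these cells in the Pecam1 value was not tested. Vcam1, the ligand of Itga4 with Itgb1 and a gene that red pulp macrophages express, rose in Van (0.46) and fell in VanLip against Van (-0.50). F11r rose in Van (0.65). The summed red pulp macrophage markers were 720 to 901 FPKM in Con, 888 to 1142 in Van and 692 to 985 in VanLip, with 0 of 6 called by DESeq2, edgeR or limma in each comparison and 2, 1 and 1 at an unadjusted DESeq2 p under 0.05, and their part in the Vcam1 value was not tested.

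Selectins and the enzymes that build their ligands (14 genes) had 0 called in Van against Con (DESeq2, with 2 at an unadjusted p under 0.05; 0 with edgeR and limma) and 2 higher in each comparison of VanLip. Cd24a rose in VanLip against Con (0.64, DESeq2 adjusted p = 1.34e-04) and against Van (0.85, DESeq2 adjusted p = 1.50e-08). Tpst2, an enzyme that adds sulfate to PSGL-1, rose in VanLip against Con (0.31) and had a value of 0.16 against Van that was not called. Fut7, which adds fucose to selectin ligands, rose in VanLip against Van (0.49) and had a value of 0.23 against Con that was not called. Among partners of CD44 (16 genes), Ezr, which links CD44 to actin, rose in Van (0.29, DESeq2 adjusted p = 0.0481) and fell in VanLip against Van (-0.35, DESeq2 adjusted p = 0.00565). Cd74 fell in VanLip against Con (-0.84, DESeq2 adjusted p = 0.0323), with 816 FPKM in VanLip 1 and 1479 and 1595 in the other 2, and Mmp9 fell from 59.2 to 19.4 normalized counts (-1.61).

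**Figure D5:**
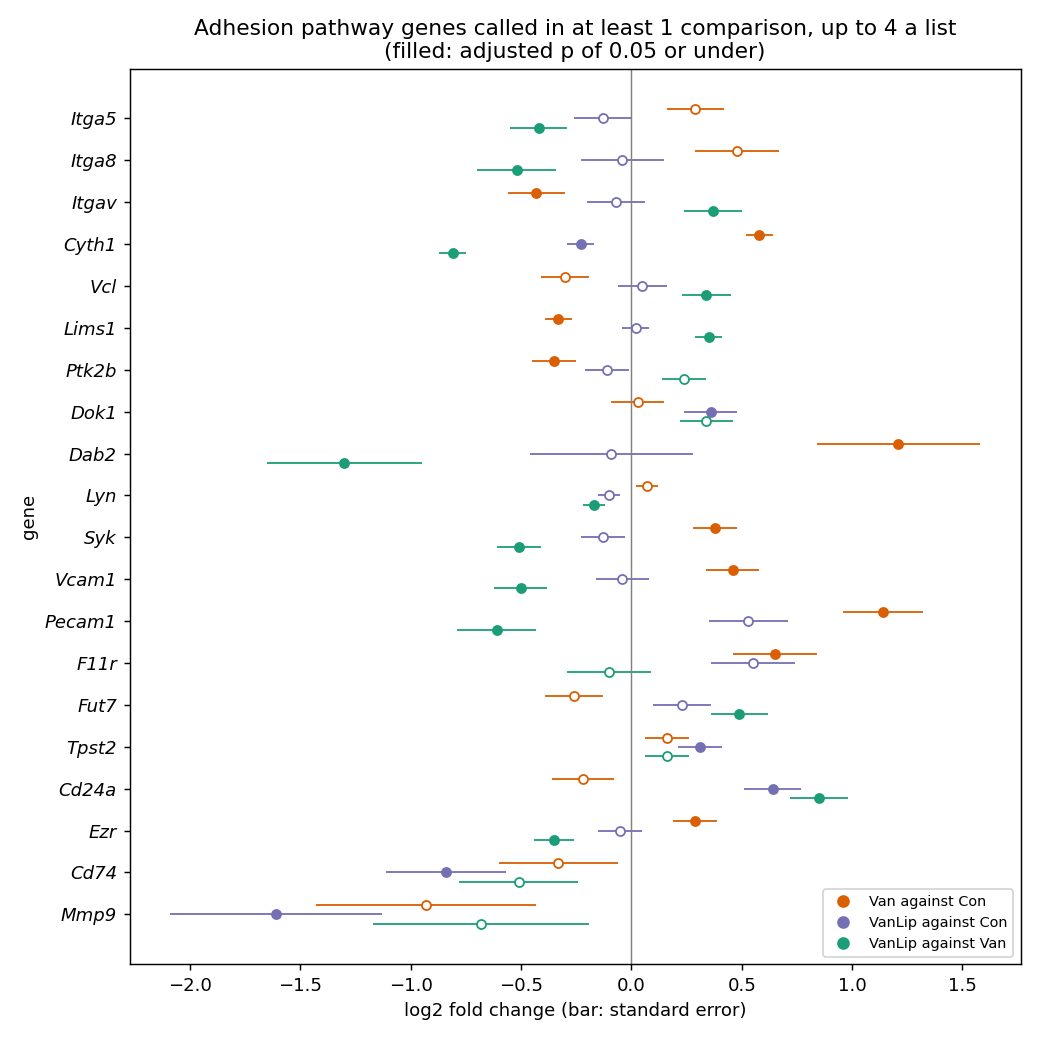
DESeq2 log2 fold changes (bars: standard error) of listed adhesion genes called in at least 1 comparison, with up to 4 genes a list and Itga2 left out because of its counts of 0; filled points have an adjusted p of 0.05 or under. Cyth1 is filled in all 3 comparisons, at 0.58, -0.23 and -0.81, and Syk, Vcam1, Pecam1, Dab2 and Ezr lie right of 0 for Van against Con and left of 0 for VanLip against Van, which share the Van libraries.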

How the data were processed

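RNA sequencing data of 9 splenic monocyte libraries (3 each of Con, Van and VanLip, from the sample titles) were used. The authors aligned reads of stranded mRNA libraries to GRCm38 with HISAT2 2.2.1 and SAMtools 1.9 and assembled them with StringTie 2.1.3; the annotation release was not given in the sources used here. The authors deposited FPKM per gene, and expected counts per gene from tximport, which need not be whole and are not normalized.

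Expected counts were rounded and tested in R 4.3.3 with the DESeq2 1.42.0 Wald test, with 1 fit of all 9 libraries, group as the only term and Benjamini-Hochberg adjustment over all genes, and genes with an adjusted p no higher than 0.05 were called. The 95% intervals are those of the Wald test. Ratios were compared with exact permutation tests (SciPy 1.17.1). The tests were tested on simulated data. GENCODE M21 supplied coordinates, and RefSeq, through a table that matched 6 of the 9 genes, the promoters; Itgal, Itgb2 and Selplg were not matched.

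All 9 genes were named, with up to 4 called genes of lowest adjusted p and the most abundant gene of each adhesion list, and for called members the 3 genes of highest r averaging 100 or more normalized counts; an item that this rule names is not reported here. The members and lists were chosen with earlier results of these data known. Alternatives were edgeR 4.0.16, TMM sizes, at least 10 counts in at least 3 libraries, only the 2 groups compared, a replicate block, limma 3.58.1 on log2(FPKM + 1) or log2(FPKM + 0.1) or with a mean FPKM of at least 1, counts divided by the size of 1 read, and leaving out each library.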

Additional observations from a re-analysis of the deposited data

How the results depend on the processing

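Each result was recomputed under 18 alternatives (ratios under fewer), none of them added later. The members called for Van against Con were 0, and 2 in a fit of only the 2 groups compared; those for VanLip against Con stayed at 0; those for VanLip against Van were 2, against 0 with edgeR, 0 with limma in all 3 forms and 1 with only the 2 groups compared. Leaving out 1 library gave 0 to 2, 0 to 0 and 0 to 2. Listed adhesion genes called were 11, 7 and 18 in the 3 comparisons in that order. They numbered 4, 1 and 8 with edgeR, 1, 1 and 5 with limma on log2(FPKM + 1), 1, 0 and 5 on log2(FPKM + 0.1), 2, 2 and 6 with genes under a mean FPKM of 1 left out, and 6 to 13, 1 to 9 and 12 to 17 with 1 library left out, the counts furthest from those reported being 6 without Con 1, Con 3 or Van 2 in the first comparison and, in the second, 1 without VanLip 2, 2 without any 1 Con library and 4 without Van 2. Signs turned only for results that were not past the threshold. For VanLip against Con, Itgal was -0.13, -0.14 and -0.13 with the 3 limma forms (0.06 as reported) and -0.05 to 0.15 with a library left out, and Itgam was 0.02 with TMM sizes, 0.00 with limma and -0.12 to 0.05 with a library left out. In the same comparison, leaving out a library gave -0.21 to 0.03 for Itga4, -0.08 to 0.16 for Itgb7 and -0.01 to 0.13 for Selplg. For Van against Con it gave -0.04 to 0.09 for Itgb1 (-0.01 with limma), -0.01 to 0.09 for Itgb2 and -0.13 to 0.06 for Icam1, and for VanLip against Van -0.02 to 0.11 for Itgb1. The log2 difference of the Itgal to Itgb2 ratio, VanLip against Con, was 0.13 from normalized counts and -0.15 to -0.01 with a library left out, that of Itgam to Itgb2 was -0.07 to 0.18, and that of Itga4 to Itgb7 was 0.00 to 0.24 for Van against Con and -0.26 to 0.00 for VanLip against Con. The cause of these turns was not tested. The transcript length of Itgal is given below. The replicate numbers did not pair the libraries: deviations from the group means correlated at -0.06 to 0.12 between libraries of the same number, over 13503 genes. With the replicate block 0, 0 and 2 members and 10, 3 and 15 listed genes were called. TMM sizes moved the median of all genes by at most 0.02 on the log2 scale. With 3 libraries a group, an arm of 2 was assumed to vary like the others.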

Other observations

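The deposited counts and FPKM of a gene together give the mean length of the transcripts to which its reads were assigned, and this length was computed for the 9 genes after their values were seen. It was scaled on 1607 genes with 1 annotated transcript, of which 92.0% of values lay within 5% of the annotated length. Itgal, with 6 annotated transcripts, was the gene whose length differed most between libraries. It was 4246, 4150 and 4638 bases in Con, 4832, 4174 and 4958 bases in Van and 5119, 4974 and 5008 bases in VanLip, beside a longest annotated transcript of 5222 bases. All 3 VanLip libraries were above all 6 others. A longer transcript gives fewer FPKM per count. The estimate of Itgal for VanLip against Con was 0.06 from counts and -0.13 from FPKM, and the part of length in this was not tested. The VanLip libraries are those with the larger size of 1 read, so read size and group cannot be told apart in this length.

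The lengths of the other 8 genes varied less. Itgb7 had 2646 to 2661 bases and Itgb2 2900 to 2924 bases over the 9 libraries. Cd44, a gene known for its many splice variants, averaged 3687 ± 43.3 bases for Con, 3700 ± 60.8 for Van and 3735 ± 17.5 for VanLip (SD, n = 3 each), beside annotated transcripts of 1305 to 5614 bases.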
